A study of Mus musculus with 16 samples.

Results

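HDC knockout arrays were set against STAT6 knockout arrays of CD11b-positive cells, pair by pair. The comparison holds 8 of the 16 arrays of the series, 4 titled HDC-/- and 4 titled STAT6-/-, chosen by genotype label and matched by tissue and diet. The 4 pairs are spleen on control diet, spleen on a high-fat diet (HFD), bone marrow on control diet and bone marrow on HFD. Each array holds RNA of cells pooled from 5 mice, all labelled male, and the HFD lasted 3 months. The remaining 8 arrays are labelled wild type (WT) and STAT4-/-, under the same tissues and diets. Stat4 itself, read by 1 probe, was at 0.37 to 3.46 on the arrays labelled STAT4-/- and at 0.12 to 1.30 on WT arrays. It was thus not lower under the knockout label. Where the probe lies relative to the deleted part is not known, so the label could not be settled. These arrays are called by their label only. The 4 HDC-/- and STAT6-/- arrays of a tissue carry the same scan time and were taken to share 1 slide. Strain, age and the deleted part of each gene are not given in the sources used here.

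Histidine decarboxylase, the product of Hdc, converts histidine to histamine, and in bone marrow it is made by mast cells, basophils and immature myeloid cells that carry CD11b. STAT6 is the transcription factor that the IL-4 and IL-13 receptors activate, and it drives genes of type 2 immunity and of alternative macrophage activation. CD11b, the product of Itgam, is an integrin chain of neutrophils, monocytes, macrophages, eosinophils and natural killer cells, so a CD11b-positive fraction is a mixture. In such bulk RNA, fewer cells of a type and less RNA per cell cannot be told apart.

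Values below are log2 signals relative to each array's 75th percentile, so that 75% of its probes lie below 0. They are listed in the order spleen control, spleen HFD, marrow control, marrow HFD, and differences are HDC-/- minus STAT6-/-. A total of 27512 features were tested over the 4 pairs, of which 18039 carry a gene symbol. Between 59.9% and 84.1% of probes were well above background on the 8 arrays, with the marrow arrays lower (62.3% and 68.0% in HDC-/-, 68.7% and 59.9% in STAT6-/-) than the spleen arrays (84.1% and 76.5% in HDC-/-, 82.3% and 81.5% in STAT6-/-). HDC-/- arrays always lay at positions 3 and 4 of a slide and STAT6-/- arrays at positions 1 and 2, so position and genotype cannot be told apart. The sources used here do not say whether 1 pool of mice gave both tissues, so p-values measure only the spread between the pairs.

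Hdc, the targeted gene of the HDC-/- mice, read 1.55, 0.94, 1.49 and 1.87 on the HDC-/- arrays, against 4.54, 4.02, 5.73 and 5.57 on the STAT6-/- arrays. The groups did not overlap. The difference was -3.50 (SE 0.33, 11.3-fold lower, limma adjusted p 0.0963), and the exact two-sided permutation p of 0.0286 is the smallest that 4 arrays against 4 allow (0.1 after adjustment over 7 probes of 3 genes). The arrays labelled WT and STAT4-/- with a usable spot read 4.26 to 5.74. Hdc thus stayed well above background on all 4 HDC-/- arrays, and whether its probe lies inside the deleted part is not known.

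Stat6 was read by 3 probes, and none was lost from the STAT6-/- arrays. The brightest read 3.32, 3.16, 2.95 and 4.0 in HDC-/- cells, against 2.77, 2.51, 2.99 and 2.64 in STAT6-/- cells, so that the groups overlapped in the marrow control pair (arrays labelled WT and STAT4-/- 2.30 to 4.10, difference 0.63, exact two-sided permutation p 0.0571). The dimmest read -3.25, -3.77, -3.74 and -3.20 in HDC-/- cells, against -3.98, -4.49, -4.43 and -5.18 in STAT6-/- cells (difference 1.03, exact p 0.0286). The remaining probe differed by 0.64 (exact p 0.171). All 3 had signal above background on every array of both genotypes, and where they lie relative to the deleted part is not known. Itgam, brightest probe, read 3.10, 4.93, 4.70 and 5.70 in HDC-/- cells, against 4.66, 3.88, 5.90 and 6.0 in STAT6-/- cells (exact p 0.514). The HDC-/- spleen control array lay below every array labelled WT or STAT4-/- on all 3 Itgam probes, at 3.10, -2.94 and 0.70 against lowest values of 3.79, -2.06 and 1.62.

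The HDC-/- control-diet arrays went against the label male. The Y-linked translation factor gene Eif2s3y read -8.66, 2.10, -7.77 and 2.91 in HDC-/- cells, against 2.40, 2.33, 3.13 and 3.15 in STAT6-/- cells, so that it was missing from both HDC-/- control-diet arrays and present on the other 6. Xist, the RNA of the inactive X chromosome in females, read -3.58, -8.58, -3.59 and -8.22 in HDC-/- cells, against -8.95, -9.19, -8.08 and -7.41 in STAT6-/- cells. The control-diet pairs therefore set HDC-/- pools without Y-linked signal against STAT6-/- pools with it, while the HFD pairs do not. On HDC-/- marrow, control diet, markers of B cell precursors also stood apart, with a mean of 1.85 over 11 genes, against -1.64 on its STAT6-/- partner and -3.19 to -0.05 on the arrays labelled WT and STAT4-/-. Megakaryocyte and platelet markers (14 genes) and stromal markers (13 genes) lay outside the other genotypes' range there too, at -0.16 (against -2.50 in the STAT6-/- partner and -3.22 to -1.51 under the other labels) and -1.24 (against -3.25 and -4.16 to -2.63). Results below are given by pair for this reason.

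Which genes differed between the genotypes in every tissue and diet? Vps16, a subunit of the complexes that tether endosomes and lysosomes, rose, and Rbbp9, a serine hydrolase first named for binding the retinoblastoma protein, fell. Vps16 read 3.12, 2.89, 2.96 and 2.81 in HDC-/- cells, against -3.98, -3.75, -2.60 and -2.09 in STAT6-/- cells. The lowest HDC-/- array thus lay far above the highest STAT6-/- array. The difference was 6.05 (SE 0.42, 66.3-fold, limma adjusted p 0.0274), higher in 4 of 4 pairs. Vps16 was read by 1 probe, so no second probe checks this difference. Rbbp9 read -6.22, -6.32, -7.21 and -7.43 in HDC-/- cells, where 1 of 4 arrays was above background, against -1.64, -1.42, -1.82 and -1.36 in STAT6-/- cells. It fell by 5.23 (SE 0.34, adjusted p 0.0274), in 4 of 4 pairs. The arrays labelled WT and STAT4-/- lay with the STAT6-/- arrays for both genes, at -4.18 to -1.90 for Vps16 and -2.03 to -1.30 for Rbbp9.

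These 2 genes were the only calls among 27512 features (0.00727%), and 1103 features had an unadjusted p under 0.05 (4.01%). Both calls ended when any 1 of the 4 pairs was left out (adjusted p 0.149 to 0.218) or when the mean Y-linked signal entered as a covariate (Vps16 5.68, adjusted p 0.312, and Rbbp9 -5.54, adjusted p 0.171), while the differences stayed close. Rbbp9 has a second probe, which read -3.97, -4.20, -4.52 and -5.07 in HDC-/- cells, against -4.62, -4.43, -5.69 and -5.19 in STAT6-/- cells (difference 0.54), so its probes disagree, and the mean over probes gave -2.35 (adjusted p 0.482).

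**Figure D1:**
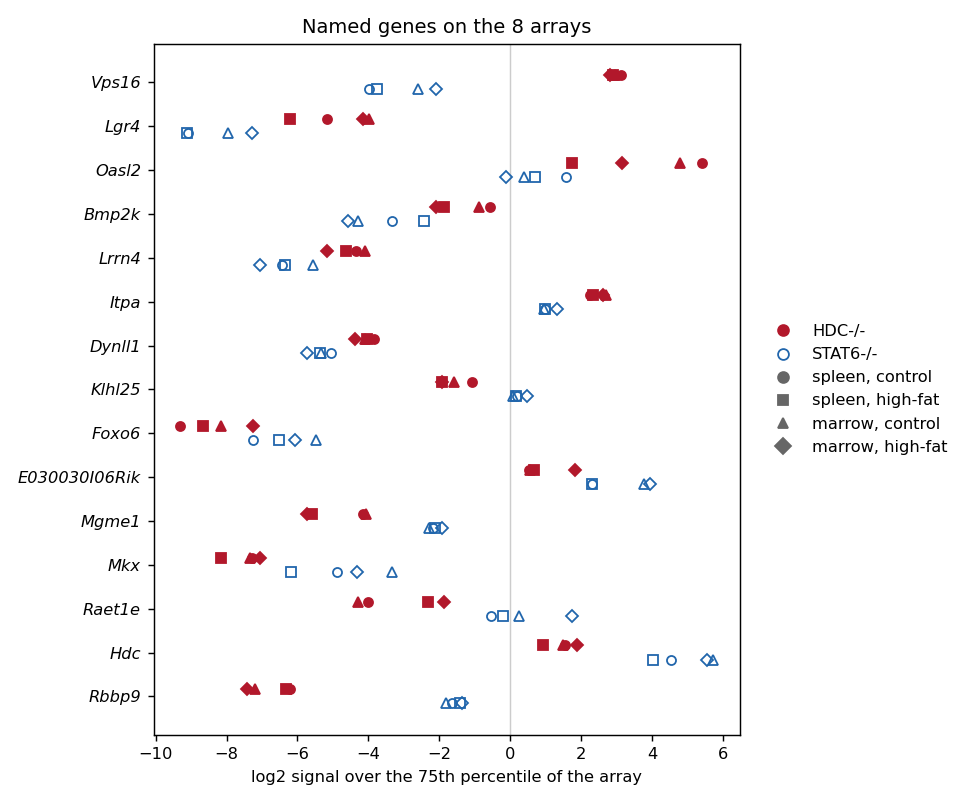
Signal of 15 named genes on the 8 arrays (x axis, log2 relative to each array's 75th percentile), with HDC-/- points filled and set above the open STAT6-/- points and 1 symbol shape per tissue and diet. Vps16 sits at 2.81 to 3.12 on the HDC-/- arrays and at -3.98 to -2.09 on the STAT6-/- arrays, and Rbbp9 at -7.43 to -6.22 against -1.82 to -1.36.

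The other named genes, those with the smallest p on each side, did not pass the adjusted threshold, and their values are given as a description. Lgr4, a receptor for R-spondins, read -5.17, -6.21, -3.98 and -4.17 in HDC-/- cells, against -9.09, -9.10, -7.97 and -7.29 in STAT6-/- cells. No STAT6-/- array had it above background, so HDC-/- cells were at least 2.81-fold higher (adjusted p 0.0963). The leucine-rich repeat gene Lrrn4 differed by 1.79 (SE 0.28), the gene of the inosine triphosphatase Itpa by 1.42 (SE 0.28), the dynein light chain gene Dynll1 by 1.29 (SE 0.27) and the kinase gene Bmp2k by 2.30 (SE 0.48). Their adjusted p ran from 0.850 (Lrrn4) to 0.980. In all 4 the groups did not overlap, which the choice of genes by small p favours. Lrrn4 and Dynll1 were dim, above background on 4 HDC-/- and 3 STAT6-/- arrays each. Over the alternative settings the smallest difference was 0.37 for Lgr4, 0.20 for Lrrn4 and 0.17 for Dynll1. It was 1.31 for Itpa and 1.45 for Bmp2k.

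On the lower side, Raet1e, a ligand of the natural killer receptor NKG2D, read -4.00, -2.31, -4.30 and -1.86 in HDC-/- cells, against -0.54, -0.20, 0.25 and 1.74 in STAT6-/- cells (difference -3.43, SE 0.42, adjusted p 0.394). Here the WT arrays (-4.02 to -1.90) lay with HDC-/- and the arrays labelled STAT4-/- (-1.03 to 0.12) with STAT6-/-. Mgme1, an exonuclease that maintains mitochondrial DNA, read -4.15, -5.58, -4.07 and -5.74 in HDC-/- cells, against -2.16, -2.13, -2.28 and -1.93 in STAT6-/- cells (-2.76, SE 0.43, adjusted p 0.850). The ubiquitin ligase adaptor gene Klhl25 differed by -1.86 (SE 0.31) and the uncharacterised gene E030030I06Rik by -2.18 (SE 0.35), both with an adjusted p of 0.855. The homeobox gene Mkx was above background on 0 of 4 HDC-/- arrays and 4 of 4 STAT6-/- arrays (at least 3.31-fold lower), and the forkhead gene Foxo6 on 0 and 2 (at least 1.04-fold lower). Of the 15 genes plotted, 7 had all 4 HDC-/- arrays outside the range of the other arrays (Vps16, Itpa, Dynll1, Rbbp9, Hdc, Mgme1 and Klhl25). The genes were picked by small p between HDC-/- and STAT6-/-, so lying apart from the STAT6-/- arrays follows largely from that choice. The arrays labelled WT and STAT4-/- did not enter it. The share of all features that lie apart in this way is not given here.

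Of the named genes, Vps16, Itpa and Lrrn4 lie within 10 Mb of Hdc on chromosome 2, and Lgr4, Mgme1 and Rbbp9 lie on that chromosome beyond 10 Mb. Within 10 Mb of Hdc, 33 of 234 tested genes (14.1%) had an unadjusted p under 0.05, 13 higher and 20 lower, against 34 of 1250 (2.72%) on the rest of the chromosome and 4.01% of all features. On the other chromosomes except Y the share ran from 2.10% to 5.35%. Without Hdc the count was 32 of 233, and it was 17 without the spleen control pair, 19 with the Y-linked covariate and 20 with normexp background correction. An unadjusted p under 0.01 was found for 13 of the 234, for 9 of the 1250 and for 0.635% of the genes on the other chromosomes. By that share chromosome 2 as a whole (1.48%) came second to chromosome 16 (1.76%). Chromosome 2 held 9 of the 20 named genes with the smallest p, where it holds 8.23% of the named genes tested.

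The differences near Hdc ran in both directions, on both sides of the gene. Positions count tested genes from Hdc, negative toward the start of the chromosome. Sppl2a, a protease that cuts within membranes, is at position 5. It read 0.37, -2.22, -0.58 and -0.70 in HDC-/- cells, against -2.27, -2.18, -3.60 and -4.04 in STAT6-/- cells, so that the spleen HFD pair did not differ. Mfap1a, a splicing factor gene at position -40, differed by 1.32 (SE 0.33) in 4 of 4 pairs. The genes of the inflammatory cytokines IL-1 alpha and IL-1 beta, Il1a and Il1b, are at positions 41 and 42. Il1b read 5.43, 3.39, 5.10 and 4.12 in HDC-/- cells, against 6.15, 5.65, 6.14 and 5.95 in STAT6-/- cells (-1.46, SE 0.35, adjusted p 0.980). Il1a differed by -2.05 (SE 0.38), and for both genes the groups did not overlap. Vps16 is at position 59, Itpa at 68 and Lrrn4 at 101, and beyond 10 Mb Mgme1 is at 131, Rbbp9 at 138 and Lgr4 at -168. Haus2, a subunit of the augmin complex of the mitotic spindle, at position -64, differed by -2.90 (SE 0.64). The part of strain background in these differences was not tested.

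**Figure D2:**
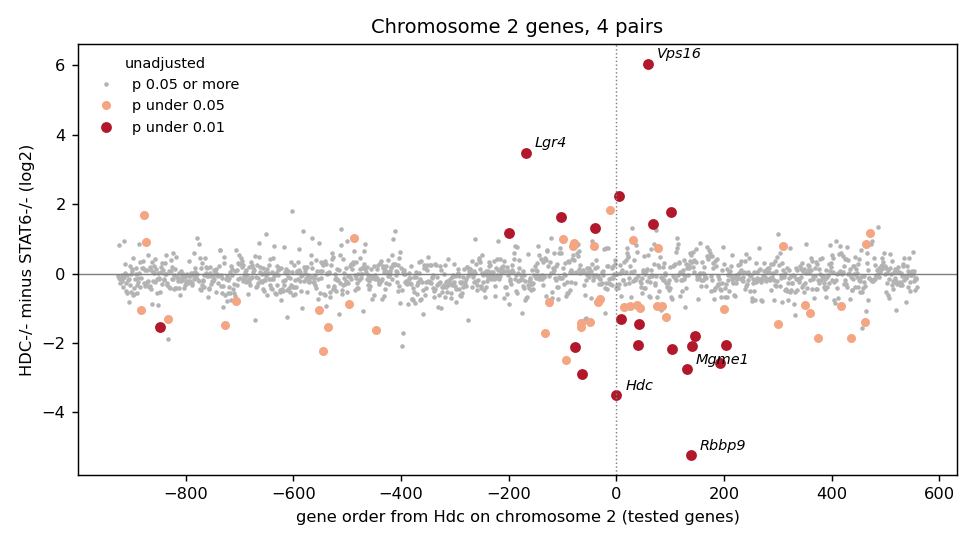
Difference HDC-/- minus STAT6-/- over 4 pairs (y axis, log2) of each tested chromosome 2 gene by its order from Hdc (x axis, number of tested genes), with larger coloured points for an unadjusted p under 0.05 and under 0.01. Vps16 (6.05), Rbbp9 (-5.23), Hdc (-3.50), Lgr4 (3.48) and Mgme1 (-2.76) stand out, and 22 of the 1484 genes (1.48%) have a p under 0.01, beside 0 to 1.76% on the other chromosomes.

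Around Stat6 on chromosome 10, 7 of 156 tested genes within 10 Mb (4.49%) had an unadjusted p under 0.05, against 11 of 679 (1.62%) on the rest of the chromosome and 4.01% of all features. The gene next to Stat6 is Nab2, a corepressor of the EGR transcription factors. It read 1.23, 0.20, -1.78 and -4.13 in HDC-/- cells, against 2.12, 2.17, 1.25 and 1.78 in STAT6-/- cells, without overlap (-2.95, SE 0.76, adjusted p 0.980). WT arrays read -2.93 to 1.06 and arrays labelled STAT4-/- read -2.89 to 2.09. Its dimmer second probe differed by -0.26. Ddit3, the stress transcription factor gene for CHOP, differed by -1.47 (SE 0.52), and Raet1e and E030030I06Rik lie on the same chromosome at positions -662 and -663 from Stat6.

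Hdc was the 1 gene of histamine handling past an unadjusted p of 0.05. Of 9 tested, 1 had an unadjusted p under 0.05 (4.01% of all features). In 4 of 4 pairs 2 were higher (4.26% of all features) and 2 lower (5.79%). The median difference was -0.19, against -0.09 over all features. Slc18a2, the vesicle transporter that loads histamine, read -2.85, -3.16, -1.87 and -2.70 in HDC-/- cells, against -2.86, -3.29, -3.00 and -4.37 in STAT6-/- cells (0.74, SE 0.37). The histamine receptor gene Hrh1 differed by 0.73 (SE 0.32) and Hrh4 by -0.19 (SE 0.47). Hnmt, the enzyme that methylates histamine, differed by -0.28 (SE 0.29). None of these passed the adjusted threshold (adjusted p 0.980). In the HFD pairs the list's median was 0.41, against 0.04 over all features. That fit left Hdc out, so the 0.41 covers 8 genes and is not comparable with the -0.19, which includes Hdc. For the change with diet 3 of the 8 genes were higher at an unadjusted p under 0.05, beside the 13% of all features.

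Among 29 genes of the IL-4 and STAT6 pathway, 0 passed the adjusted threshold, 1 was higher and 3 were lower at an unadjusted p under 0.05 (1.73% and 2.28% of all features on each side), and the median was 0.04. That median hides a split by diet. The list's mean difference was 0.52 in spleen and 0.16 in marrow on control diet, and -0.32 and -0.25 on HFD. In the HFD pairs its median was -0.45, against 0.04 over all features. Ccl24, an eosinophil-attracting chemokine of alternatively activated macrophages, read 0.69, -0.75, -3.15 and -2.55 in HDC-/- cells, against -5.09, -1.15, -7.46 and -4.10 in STAT6-/- cells. The HDC-/- value was above its partner in 4 of 4 pairs, by 0.40 in the spleen HFD pair and by 5.78 in the spleen control pair (mean 3.01, SE 0.85, adjusted p 0.980). The ligand genes went the other way. Il4 read -2.06, -1.59, -3.44 and -3.41 in HDC-/- cells, against -0.14, -1.0, -0.53 and -1.17 in STAT6-/- cells (-1.92, SE 0.42, adjusted p 0.980), and Il13 differed by -1.49 (SE 0.28, adjusted p 0.901) with 2 of 4 arrays above background in each genotype. The alternative activation genes Arg1, Retnla, Chil3 and Mrc1 had differences of 0.26, 0.27, -0.40 and 0.55, each with an SE above 0.4, and each changed sign between pairs.

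Whether the genotype difference itself changed with diet was tested next. The difference between HDC-/- and STAT6-/- cells on HFD minus that on control diet was called for 2 of 27441 features (0.00729%), Eif2s3y (10.75, SE 0.58, adjusted p 0.00362) and Ddx3y, a Y-linked helicase gene (10.17, SE 0.67, adjusted p 0.00753), both the missing Y-linked signal described above. At an unadjusted p under 0.05 it was higher for 3568 features (13%) and lower for 1871 (6.82%), and the median of all features was 0.26. No feature was called lower by limma in this setting, but 10 were with array median scaling, where the median of all features was 0.00, 8 with normexp and 94 with trend and robust. The smallest p there belonged to the cell adhesion gene Nectin4 (-5.09), the coenzyme Q synthesis gene Coq3 (-4.58) and the fatty acid binding protein gene Fabp4, each with an adjusted p of 0.0918. Fabp4 read 1.62, -3.46, 1.99 and -4.47 in HDC-/- cells, against -2.58, -0.57, -3.55 and -2.63 in STAT6-/- cells, so that HDC-/- was above STAT6-/- on control diet and below it on HFD in both tissues (-7.23, SE 0.78). Diet and the missing Y-linked signal cannot be told apart in HDC-/- cells. Without the HDC-/- marrow control array, 0 features were called by limma and 2545 had an unadjusted p under 0.05.

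Type I interferon genes were brighter in HDC-/- cells of the control-diet pairs. Of 23 tested, 12 were higher at an unadjusted p under 0.05 over the 4 pairs (1.73% of all features) and 0 lower (2.28%). In 4 of 4 pairs 7 were higher (4.26% of all features), 0 passed the adjusted threshold, and the median was 1.05. The list's mean difference was 2.74 in spleen and 2.04 in marrow on control diet, and -0.26 and 0.57 on HFD. Oasl2, an interferon-induced relative of the oligoadenylate synthetases, read 5.40, 1.74, 4.79 and 3.16 in HDC-/- cells, against 1.57, 0.69, 0.38 and -0.13 in STAT6-/- cells. It did not overlap (3.14, SE 0.55, adjusted p 0.855), with WT arrays at 2.76 to 4.90 and arrays labelled STAT4-/- at -0.10 to 0.99. Ifit3, which binds viral RNA with its partner proteins, read 5.62, -0.63, 4.79 and -0.04 in HDC-/- cells, against 1.37, 0.14, 0.49 and -0.75 in STAT6-/- cells. Its relative Ifit1 read 5.02, -0.11, 4.12 and 0.76 in HDC-/- cells, against 1.06, 0.52, 0.52 and -0.41 in STAT6-/- cells. On the control-diet arrays both were thus far above every STAT6-/- array, and on the HFD arrays they lay among them. The change of the difference with diet was -4.30 for Ifit3 (adjusted p 0.0933) and -3.51 for Ifit1 (adjusted p 0.124), and 16 of the 23 genes were lower in that test at an unadjusted p under 0.05, beside 6.82% of all features. In the HFD pairs alone the list's median was 0.13.

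The upstream regions of Ifit1 and Ifit3 are shown because these genes stood far apart on control diet and hold the same motif. They are the 250 bases before the start in RefSeq (GRCm38.p6), written from the gene's strand in lower case, with matches to the interferon-stimulated response element core (GAAA, any 2 bases, GAAA) on either strand in capitals.
Ifit1, chr19:34640639-34640888 (+ strand): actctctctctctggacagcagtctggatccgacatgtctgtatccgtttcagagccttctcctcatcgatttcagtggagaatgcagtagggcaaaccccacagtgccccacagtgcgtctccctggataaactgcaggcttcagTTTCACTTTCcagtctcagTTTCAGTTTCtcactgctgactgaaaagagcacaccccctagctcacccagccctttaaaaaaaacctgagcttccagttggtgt
Ifit3, chr19:34583279-34583528 (+ strand): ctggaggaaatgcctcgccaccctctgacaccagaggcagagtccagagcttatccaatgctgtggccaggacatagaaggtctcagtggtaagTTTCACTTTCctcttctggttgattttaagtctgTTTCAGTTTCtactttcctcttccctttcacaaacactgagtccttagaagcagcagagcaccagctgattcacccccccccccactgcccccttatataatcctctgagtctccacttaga
Each holds 2 matches. Of 18 list genes with an upstream entry, 8 hold at least 1, by promoter 42.1% of 19, while 2.98% of all 32851 promoters of that length do. Oasl2 holds none of these letters in its window. A match is a description and not a measured site.

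Inflammatory cytokine and chemokine genes were dimmer in HDC-/- cells. Of 19 tested, 11 were lower at an unadjusted p under 0.05 (2.28% of all features) and 0 higher (1.73%). In 4 of 4 pairs 10 were lower (5.79% of all features), 0 passed the adjusted threshold, and the median was -1.31. The mean difference was -1.33 and -2.17 on control diet and -0.71 and -0.56 on HFD, in spleen and marrow in that order. Cxcl1, a neutrophil-attracting chemokine, read -5.82, -1.47, -7.32 and 0.04 in HDC-/- cells, against -0.74, -0.78, 0.73 and 0.29 in STAT6-/- cells (-3.52, SE 1.25, adjusted p 0.980). Its relative Cxcl2 read -0.36, 4.46, 0.71 and 4.92 in HDC-/- cells, against 4.84, 4.57, 5.90 and 5.50 in STAT6-/- cells (-2.77, SE 0.96). Both were lowest on the HDC-/- control-diet arrays. Ccl3, a chemokine of macrophages, read 2.66, 3.77, 2.12 and 4.88 in HDC-/- cells, against 4.44, 4.59, 5.89 and 5.84 in STAT6-/- cells (-1.83, SE 0.52). Ptgs2, the inducible prostaglandin synthase, read 0.05, -0.60, 0.84 and 0.21 in HDC-/- cells, against 2.93, 1.22, 2.01 and 1.01 in STAT6-/- cells, without overlap (-1.67, SE 0.40, adjusted p 0.980). The change with diet was 6.10 for Cxcl1, 4.84 for Cxcl2 and 3.76 for the cytokine gene Tnf, each with an adjusted p of 0.0933.

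The upstream regions of Cxcl1 and Cxcl2, shown on the same terms, have matches to the NF-kB letters (GGG, any 2 bases, TTTCC) on either strand in capitals.
Cxcl1, chr5:90890995-90891244 (+ strand): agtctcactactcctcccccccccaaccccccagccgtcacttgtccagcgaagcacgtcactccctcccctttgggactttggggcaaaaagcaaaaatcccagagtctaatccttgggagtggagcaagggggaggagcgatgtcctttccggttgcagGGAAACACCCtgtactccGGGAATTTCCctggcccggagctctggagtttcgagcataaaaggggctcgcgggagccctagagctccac
Cxcl2, chr5:90903649-90903898 (+ strand): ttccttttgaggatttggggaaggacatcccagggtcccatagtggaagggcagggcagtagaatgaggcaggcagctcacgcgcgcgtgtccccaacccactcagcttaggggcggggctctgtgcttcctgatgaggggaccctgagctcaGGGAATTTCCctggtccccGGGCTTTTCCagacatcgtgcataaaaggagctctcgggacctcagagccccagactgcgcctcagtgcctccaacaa
Each holds 2 matches. Of 14 inflammatory list genes with an entry, 4 hold at least 1, by promoter 22.2% of 18, while 1.41% of all promoters do.

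**Figure D3:**
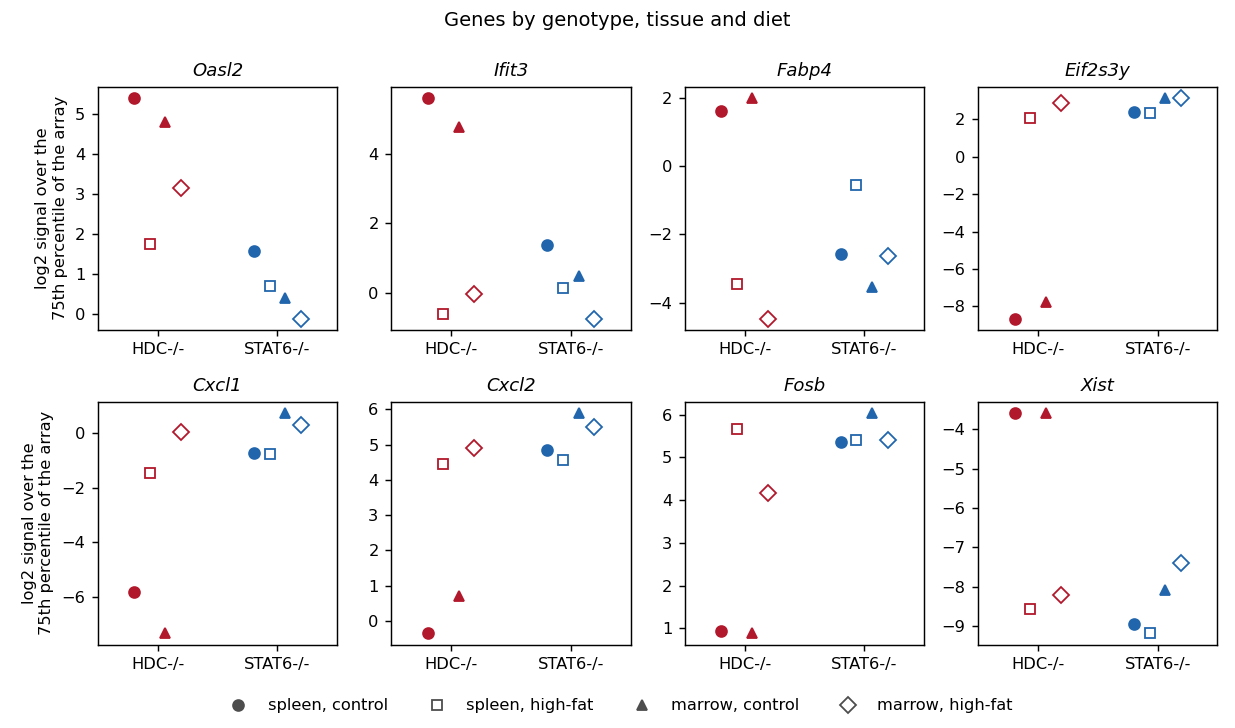
Signal of 8 genes (y axis, log2 relative to each array's 75th percentile) on the 4 HDC-/- arrays at left and the 4 STAT6-/- arrays at right, with filled symbols for control diet and open symbols for HFD. Cxcl1 lies at -5.82 and -7.32 on the HDC-/- control-diet arrays and at -1.47 or higher on the other 6, and Ifit3 at 5.62 and 4.79 against 1.37 or lower.

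Immediate early genes, which report recent cell activation, followed the same split by diet. Of 17 tested, 6 were lower at an unadjusted p under 0.05 (2.28% of all features), 7 were lower in 4 of 4 pairs (5.79%) and 0 passed the adjusted threshold (median -0.77). The AP-1 gene Fosb read 0.93, 5.66, 0.88 and 4.16 in HDC-/- cells, against 5.36, 5.42, 6.04 and 5.40 in STAT6-/- cells. Atf3, a stress-induced repressor, read 1.71, 3.25, -0.52 and 3.40 in HDC-/- cells, against 4.89, 4.27, 5.12 and 4.19 in STAT6-/- cells (-2.66, SE 0.79, adjusted p 0.980). The list's mean difference was -1.63 and -1.88 on control diet, against -0.02 and -0.40 on HFD.

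Markers of cell types moved with the same control-diet arrays, and their part in the results above was not tested. The natural killer list (16 genes) differed by 2.06 in spleen and 2.20 in marrow on control diet, and by -0.53 and -0.55 on HFD. Its granzyme gene Gzma read 5.65, 2.29, 2.84 and -1.11 in HDC-/- cells, against 2.91, 3.71, -0.99 and -0.01 in STAT6-/- cells. The red pulp macrophage list (15 genes) differed by 1.24, -0.92, 2.38 and -0.12 and the mature B cell list (14 genes) by 1.15, -0.21, 1.97 and -0.65. The change with diet was lower at an unadjusted p under 0.05 for 13 natural killer, 9 macrophage and 7 B cell genes, beside 6.82% of all features. The secondary granule list, of neutrophil precursors, differed by -1.65, 0.79, -1.08 and -0.15, and the erythroid list (13 genes) by -3.72, -0.78, 0.95 and -0.75. The mean level of the erythroid list ran from -0.82 to 1.53 on the HDC-/- arrays and from 0.16 to 2.90 on the STAT6-/- arrays.

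Eosinophil genes were dimmer in HDC-/- cells in 3 of the 4 pairs. The list (11 genes) differed by -2.97 in spleen and -1.67 in marrow on control diet, and by 0.08 in spleen and -1.94 in marrow on HFD, with 6 genes lower at an unadjusted p under 0.05 (2.28% of all features), 0 higher and 0 past the adjusted threshold. Siglecf, a surface lectin of eosinophils, read -0.72, -0.71, 0.28 and 0.23 in HDC-/- cells, against 0.97, -0.23, 1.65 and 1.51 in STAT6-/- cells (-1.20, SE 0.31, adjusted p 0.980). Epx, the eosinophil peroxidase gene, read -5.55, -0.65, 0.84 and 0.57 in HDC-/- cells, against 0.82, -1.74, 2.39 and 1.80 in STAT6-/- cells. Alox15, a lipoxygenase that eosinophils and IL-4-treated macrophages make, read -4.56, -2.91, -4.57 and -3.21 in HDC-/- cells, against -1.54, -3.44, 0.79 and -0.32 in STAT6-/- cells.

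Of 16 basophil and mast cell genes, 6 were higher in 4 of 4 pairs (4.26% of all features), and 2, Hdc and Il4, were lower in 4 of 4 (5.79%). The list's mean difference was 0.46, 0.24, 0.82 and -0.18, so the marrow HFD pair went the other way. For the change with diet, 3 of 15 genes were lower at an unadjusted p under 0.05 (6.82% of all features) and 0 higher (13%). Cpa3, the mast cell carboxypeptidase, read 0.20, 0.41, 2.64 and 0.11 in HDC-/- cells, against -0.43, -0.20, -0.08 and -0.37 in STAT6-/- cells, without overlap (1.11, SE 0.44, adjusted p 0.980). Cd200r3, a receptor of basophils and mast cells, read -1.47, -2.56, -1.36 and -3.60 in HDC-/- cells, against -4.61, -2.81, -4.15 and -4.81 in STAT6-/- cells (1.85, SE 0.52). Of the 16 genes, 12 had a positive difference, and the defining markers Cpa3, Mcpt8 and Fcer1a were above background on every array.

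**Figure D4:**
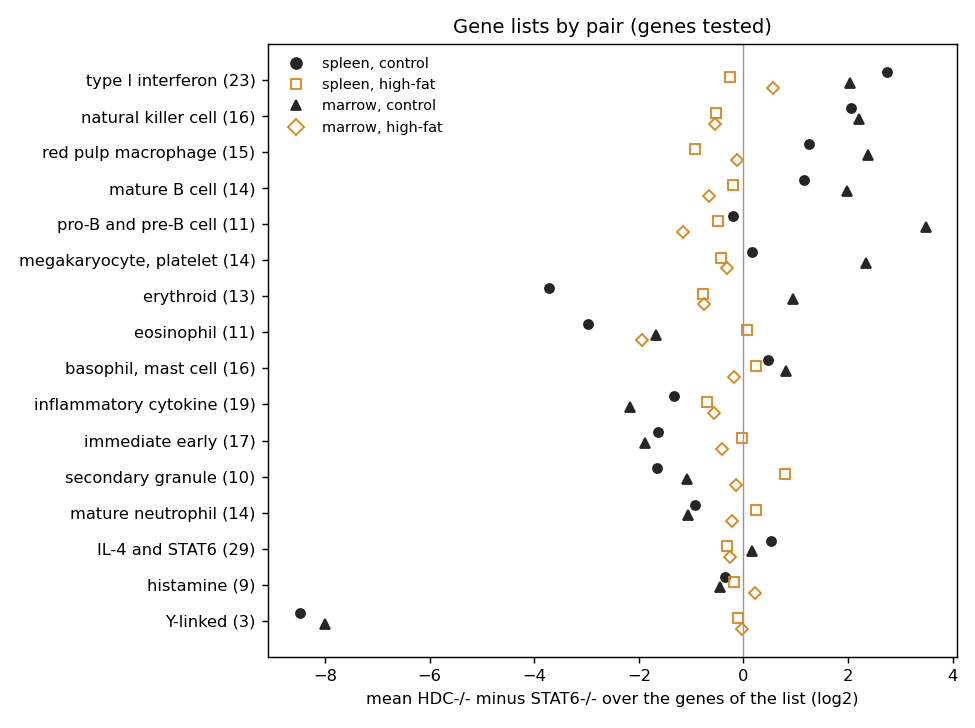
Mean difference HDC-/- minus STAT6-/- over the genes of each list (x axis, log2) in the 4 pairs, with the number of genes tested beside each name, filled black symbols for control diet and open orange symbols for HFD. The type I interferon list lies at 2.74 and 2.04 on control diet and at -0.26 and 0.57 on HFD, and the Y-linked list at -8.49 and -8.00 against -0.11 and -0.02.

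Vps16 and Rbbp9 also led within each tissue and on HFD. In the HFD pairs, where both genotypes had Y-linked signal, Vps16 (5.77, SE 0.36) rose and Rbbp9 (-5.49, SE 0.34) fell, each with an adjusted p of 0.00519, the 2 calls among 27441 features (0.00729%), beside 1342 at an unadjusted p under 0.05. That fit took its spread from all 16 arrays, and with the 2 HFD pairs alone 0 features were called by limma (2287 at an unadjusted p under 0.05). Mgme1 differed by -3.63 on HFD (SE 0.33, adjusted p 0.0576). In spleen 3 features were called (0.0109%): Vps16 (6.87, SE 0.39) and the unnamed probe A_55_P2263971 (4.76, SE 0.54, adjusted p 0.0441) rose and Rbbp9 (-4.74, SE 0.32) fell. That probe was above background on 4 HDC-/- and 0 STAT6-/- arrays, and over the 4 pairs it was at least 3.28-fold higher. In marrow 3 were called as well (0.0109%): Vps16 (5.23, SE 0.39) and the unnamed probe A_55_P1976519 (3.22, SE 0.37, adjusted p 0.0499) rose and Rbbp9 (-5.73, SE 0.32) fell. This probe was above background on 2 HDC-/- and 0 STAT6-/- arrays, at least 1.18-fold higher over the 4 pairs. Each unnamed probe thus passed the filter (above background on at least 2 of the 8 arrays) through HDC-/- arrays alone. Their calls are given as a description. Both probes lost their call under array median scaling (A_55_P2263971 4.75, adjusted p 0.0544, and A_55_P1976519 3.33, adjusted p 0.0677). In each tissue the calls also fell to 2 with normexp and with trend and robust. They fell to 2 as well with a filter of 8 of 16 arrays, and to 1 with the mean over all probes.

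The difference between the tissues was called for 0 of 27441 features (0%) by limma, with 908 at an unadjusted p under 0.05. The smallest p belonged to the choline transporter family gene Slc44a5, which read -3.77, -5.80, -8.17 and -8.54 in HDC-/- cells, against -6.26, -5.77, -4.07 and -4.05 in STAT6-/- cells (spleen minus marrow 5.52, adjusted p 0.667). It was thus lower in HDC-/- marrow than in STAT6-/- marrow on both diets. Over both tissues 2 of the 4 HDC-/- arrays had it above background, and the HDC-/- marrow readings were the lowest of these 8 arrays. WT arrays ranged from -8.80 to -3.39 and arrays labelled STAT4-/- from -8.27 to -4.94, so those readings did not stand apart. On the other side were Defb48, of the defensin family (-3.06), the calsyntenin gene Clstn1 (-2.46) and Nacad (-3.09), all with an adjusted p of 0.980.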

How the data were processed

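Expression was measured on 16 one-colour Cy3 arrays, with 44397 spots each. The deposited files hold intensity values: per the file headers Agilent Feature Extraction (11.0.1.1) was run by the authors and gives a background-subtracted intensity per spot, with no scaling between arrays. Groups come from the genotype, tissue and diet labels, and the pairs from the tissue and diet labels; the numbers in the titles mark the tissue and pair nothing further.

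Control spots and spots marked non-uniform or outlying were dropped, and spots of a probe averaged. Hdc was not tested in the fits on 16 arrays, since its spot was unusable on 1 array labelled STAT4-/-. Deposited intensities were put on the log2 scale and each array's 75th percentile subtracted. Probes were named through RefSeq accessions (69.1% of 39429 matched), the probe with the highest mean stood for a gene, and features well above background on at least 2 of the 8 arrays were kept. The array design uses an older build than the symbol table, so only chromosome and gene order are given. No spot was saturated.

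Tests used limma 3.58.1 (R 4.3.3, with the data.table package, version 1.17.8), two-sided, with Benjamini-Hochberg adjustment over all features and calls at an adjusted p under 0.05. The main comparison fitted genotype and pair on 8 arrays. Tissue comparisons and their difference used all 16 arrays with genotype in tissue and diet in tissue, and diet comparisons all pairwise terms. Single probes had exact permutation tests that ignored the pairs. Named genes are those called in 4 of 4 pairs, or, with fewer than 3 on a side, the 8 smallest p there; 1 of these is not reported here; list members and neighbours of Hdc and Stat6 were added, and where a genotype had no array above background, folds are lower bounds set against the lowest signal well above background. Members and lists were chosen with earlier results of these data known. Alternatives changed the scaling, background correction, filter, probe choice, variance prior, block and arrays used. The fits were tested on simulated data. Figures were drawn with matplotlib 3.10.9.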

Additional observations from a re-analysis of the deposited data

Results flagged for a closer look

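Over 67 quantities with 4 pairs each, 3 had 1 pair far from the other 3, and chance gives such a gap in about 1 in 20. The Itpa difference was 1.76 in the marrow control pair, against 1.26 to 1.34 in the others. The nonclassical monocyte list differed by 1.44 in the spleen control pair, against -0.63 to -0.35. The cytosolic ribosomal protein list differed by 0.22 in the spleen HFD pair, against -0.21 to -0.14. The genotype difference changed with diet for Eif2s3y (10.75) and Ddx3y (10.17), by the limma interaction test given above.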

How the results depend on the processing

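The 2 calls over 4 pairs (Vps16 and Rbbp9) were 1 under quantile normalization, 0 with the mean over all probes, 0 with the Y-linked covariate, 0 from the HFD pairs alone and 0 to 0 with any 1 pair left out (630 to 2056 features at an unadjusted p under 0.05). They were 4 with the replicate block of tissue alone, 5 with all 16 arrays and genotype in tissue, and 64 with all 16 arrays and all pairwise terms, while no block gave the same 2. Genes within 10 Mb of Hdc at an unadjusted p under 0.05 (32 without Hdc) numbered 20 with normexp, 52 with all pairwise terms, 19 with the Y-linked covariate and 17 to 35 with a pair left out, 17 being without the spleen control pair. HFD-pair calls (2) were 4 with array median scaling, 1 with mean probes and 4 with trend and robust. Spleen calls (3) were 1 with mean probes, and marrow calls (3) were 26 with quantile normalization and 1 with mean probes. Calls for the change with diet (2) were 1 with quantile normalization, 13 with array median scaling (3 higher, 10 lower), 27 with normexp (19 higher, 8 lower), 234 with trend and robust (140 higher, 94 lower) and, chosen after seeing the data, 0 without the HDC-/- marrow control array. Normexp turned the sign of Klhl25 (0.86), A_55_P1976519 in marrow (-0.33), Defb48 (0.46) and Clstn1 (0.62) between tissues and Coq3 between diets (0.41). Itgam turned to 0.34 with the Y-linked covariate and 0.37 in the HFD pairs alone. Stat4 (0.13) turned to -0.58 and -0.53 in those settings and ran from -0.22 to 0.53 with a pair left out. The median over all features was -0.09 over 4 pairs but -0.30 with normexp, -0.22 in marrow but -0.58 with normexp, and 0.26 for the change with diet but 0.00 with array median scaling and 0.74 with normexp. Vps16 ran from 5.48 to 6.44 and Rbbp9 from -5.54 to -2.35 over 18 settings. The causes were not tested. With 3 residual degrees of freedom and a median SE of 0.35, small differences were out of reach. A bound is given only where a genotype had no array above background, and other dim probes have none.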
